A study of Rattus norvegicus with 6 samples.

Results

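RNA sequencing of the rat vestibular epithelium, the inner ear tissue that senses head movement, was examined for 7 genes of myelin and of the Schwann cells that make it. The genes were Mbp, Pmp22, Mag, Prx, Mal, Cldn19 and Egr2. They were taken by symbol from the deposited table of 32883 genes, and 7 of 7 were present. The 6 Long-Evans rats formed 2 groups. Control rats (n = 3) received PBS, the vehicle. STREP rats (n = 3) received streptomycin, an aminoglycoside antibiotic that damages hair cells (HCs), at 500 mg/kg by subcutaneous injection once on each day for 6 weeks, starting at postnatal day 21. In either group 2 animals were male and 1 was female, replicate 3. No transgene, deletion or other agent is given for either group. Each library came from 1 animal, whose 2 utricles and 6 cristae were dissected, cleaned of adjacent tissue and pooled, so a library mixes every cell type left in the dissected tissue.

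Schwann cells wrap the axons of peripheral nerves, including those of vestibular neurons, in layers of membrane. In compact myelin the layers are held together by proteins such as Mbp and Pmp22. The non-compact parts hold adhesion, junction and scaffold proteins such as Mag, Cldn19 and Prx. The programme is switched on by axonal neuregulin acting on ErbB receptors and by the transcription factors Sox10 and Egr2. Vestibular axons lose their myelin close to where they enter the sensory epithelium, so the Schwann cells of such a dissection lie mostly in the tissue just beneath it.

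The gene identifiers in the table were ENSRNOG00000016516 for Mbp, ENSRNOG00000003338 for Pmp22, ENSRNOG00000015445 for Mal, ENSRNOG00000021023 for Mag, ENSRNOG00000018369 for Prx, ENSRNOG00000007922 for Cldn19 and ENSRNOG00000000640 for Egr2. RefSeq promoter sequences of the GRCr8 build, which is not the Rnor6.0 build used for the counts, were found for 7 of 7 genes. The 250 bases before the transcript start are shown for Prx, which passed the test of group difference below, for Cldn19 and Mag, which varied between animals along with it, and for Egr2, the transcription factor of the set. Capitals mark matches to 6-letter or 8-letter cores: ACAAAG or ACAATG, recognised by SOX factors, and CATATATG, the centre of a serum response element. Both strands were searched.
Prx, chr1:91914171-91914420, plus strand: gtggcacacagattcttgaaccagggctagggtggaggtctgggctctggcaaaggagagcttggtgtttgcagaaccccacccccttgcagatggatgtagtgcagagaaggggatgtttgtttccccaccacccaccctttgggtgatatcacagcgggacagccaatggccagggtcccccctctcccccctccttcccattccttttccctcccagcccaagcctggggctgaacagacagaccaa
Cldn19, chr5:138148325-138148574, plus strand: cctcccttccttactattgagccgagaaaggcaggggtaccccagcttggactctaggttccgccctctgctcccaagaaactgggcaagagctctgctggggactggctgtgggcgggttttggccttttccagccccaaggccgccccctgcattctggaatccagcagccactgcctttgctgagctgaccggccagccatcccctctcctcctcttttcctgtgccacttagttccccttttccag
Mag, chr1:95291045-95291294, minus strand: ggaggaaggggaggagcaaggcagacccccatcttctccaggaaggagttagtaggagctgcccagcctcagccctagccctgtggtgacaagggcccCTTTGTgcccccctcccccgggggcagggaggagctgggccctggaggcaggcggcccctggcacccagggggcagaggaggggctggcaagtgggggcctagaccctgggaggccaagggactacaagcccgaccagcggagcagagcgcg
Egr2, chr20:21054442-21054691, minus strand: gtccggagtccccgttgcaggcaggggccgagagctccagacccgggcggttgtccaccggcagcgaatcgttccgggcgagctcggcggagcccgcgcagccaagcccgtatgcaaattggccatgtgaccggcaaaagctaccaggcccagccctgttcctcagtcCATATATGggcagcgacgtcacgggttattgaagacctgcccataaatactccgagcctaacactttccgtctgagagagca
The Mag window held 1 SOX core, on the opposite strand, starting 152 bases before the transcript start. The Egr2 window held 1 CATATATG, starting 82 bases before it, and the Prx and Cldn19 windows held no match. Across the 7 genes, 2 (Mag and 1 of the Mbp entries) held a SOX core, which 25.3% of 33469 rat promoter windows of this length also held. CATATATG was found in 0.36% of them. The EGR motif GCGNGGGCG, which 4.29% of windows held, and TATAAA, held by 12.9%, were found in 0 of the 7 genes. These are matches of letters only.

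Library totals were 48568191 to 59906048 counts in Control and 29333584 to 33744909 in STREP animals, with no overlap (exact two-sided permutation p = 0.1, the smallest that 3 against 3 allows). Raw counts of the 7 genes ran from 364 to 111865. Counting error was not computed, and reads of 1 molecule may have been counted repeatedly. The libraries differed in how unevenly their counts were spread over genes. The 100 most abundant genes took 31.9%, 37.4% and 38.7% of counts in Control 1, 2 and 3 and 34.9%, 29.1% and 43.8% in STREP 1, 2 and 3, so that STREP 2 and STREP 3 lay at the opposite ends of the range. Normalised counts are counts divided by a size factor of each library. They are not corrected for transcript length, so they were compared between animals and not between genes.

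All 7 genes had lower fitted levels in STREP than in Control animals, and the log2 fold changes ran from -0.68 for Prx to -0.12 for Egr2. Prx was the only one of them called, at -0.68 ± 0.21 (SE) on the log2 scale, which is 37.7% lower (DESeq2, adjusted p = 0.0425). A gene was called where the adjusted p over all genes was under 0.05 and the fold change was over 1.5. The count is 1 of 7, beside 1.37% of the 16250 genes tested that were called lower and 3.24% called in either direction, and it rests on a gene whose call was lost in 10 of 18 alternative analyses. The median log2 fold change was -0.59 over the 7 genes and 0.01 over all genes tested. Unadjusted p-values under 0.05 were found for 5 of the 7. The share of all genes tested below that level was not computed, so this count and the later ones at an unadjusted p have no background. The groups did not overlap for 3 of the 7 (Mbp, Mag and Mal), against 8.63% of all genes tested. In bulk tissue, fewer Schwann cells, less RNA per Schwann cell and a change in other cells of the dissected tissue cannot be told apart.

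Among the genes of compact myelin and its membrane traffic, Mbp encodes the basic protein that binds the cytoplasmic faces of the membrane to each other. Its normalised counts were 68354, 95095 and 76168 in Control 1, 2 and 3 and 62304, 34541 and 62828 in STREP 1, 2 and 3. Every STREP animal lay below every Control animal, and STREP 2 was by far the lowest. The group means were 79873 ± 13749.9 and 53224 ± 16182 (SD, n = 3), and the log2 fold change was -0.59 ± 0.22 (DESeq2, adjusted p = 0.148).

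Pmp22, a four-span membrane protein of compact myelin whose gene dosage underlies common inherited neuropathies, had 40951.5, 60219 and 46409.5 normalised counts in Control 1, 2 and 3. STREP 1, 2 and 3 had 50228, 22040.5 and 48306. STREP 2 stood at 44.8% of the Control mean, whereas the other two STREP animals lay inside the Control range. The log2 fold change was -0.29 ± 0.26 (DESeq2, adjusted p = 0.786).

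Mal, a lipid raft protein involved in the traffic of myelin membrane, had 12808.5, 14539 and 13649 normalised counts in Control 1, 2 and 3 and 11885, 7719 and 11839 in STREP 1, 2 and 3. The groups did not overlap, and STREP 1 and STREP 3 were near to each other at 87.0% and 86.6% of the Control mean. The log2 fold change was -0.38 ± 0.18 (DESeq2, adjusted p = 0.331).

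Among the genes of non-compact myelin, Prx encodes periaxin, a scaffold that ties the outer Schwann cell membrane to the basal lamina. Its normalised counts were 11755, 11182 and 9025 in Control 1, 2 and 3 and 9141, 5261 and 5524 in STREP 1, 2 and 3. STREP 2 and STREP 3 stood at 49.4% and 51.9% of the Control mean, but STREP 1 exceeded Control 3, so the groups overlapped although the gene was called.

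Mag, an adhesion molecule of the membrane that faces the axon, had 1263, 1407 and 1212 normalised counts in Control 1, 2 and 3 and 1201, 687 and 583 in STREP 1, 2 and 3. STREP 1 was just below the lowest Control animal, and the other STREP animals were at 53.1% and 45.1% of the Control mean. Its log2 fold change of -0.65 ± 0.26 did not pass the test (DESeq2, adjusted p = 0.177).

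Cldn19, a claudin of the tight junctions of Schwann cells, had 1107, 1231 and 979.5 normalised counts in Control 1, 2 and 3. STREP 1, 2 and 3 had 979.9, 579 and 544.5. STREP 1 matched Control 3, while STREP 2 and STREP 3 were at 52.3% and 49.2% of the Control mean. The log2 fold change was -0.66 ± 0.25 (DESeq2, adjusted p = 0.138).

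Egr2, the transcription factor that drives myelin gene expression, was the most variable of the 7. Its normalised counts were 2044, 1909 and 912 in Control 1, 2 and 3 and 2632, 953 and 899 in STREP 1, 2 and 3. The highest value of all 6 animals was that of STREP 1, and Control 3 was as low as the other STREP animals. The log2 fold change was -0.12 ± 0.61 (95% interval -1.31 to 1.08, DESeq2, adjusted p = 0.983), so neither a fall nor a rise of 2-fold was outside the interval.

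**Figure D1:**
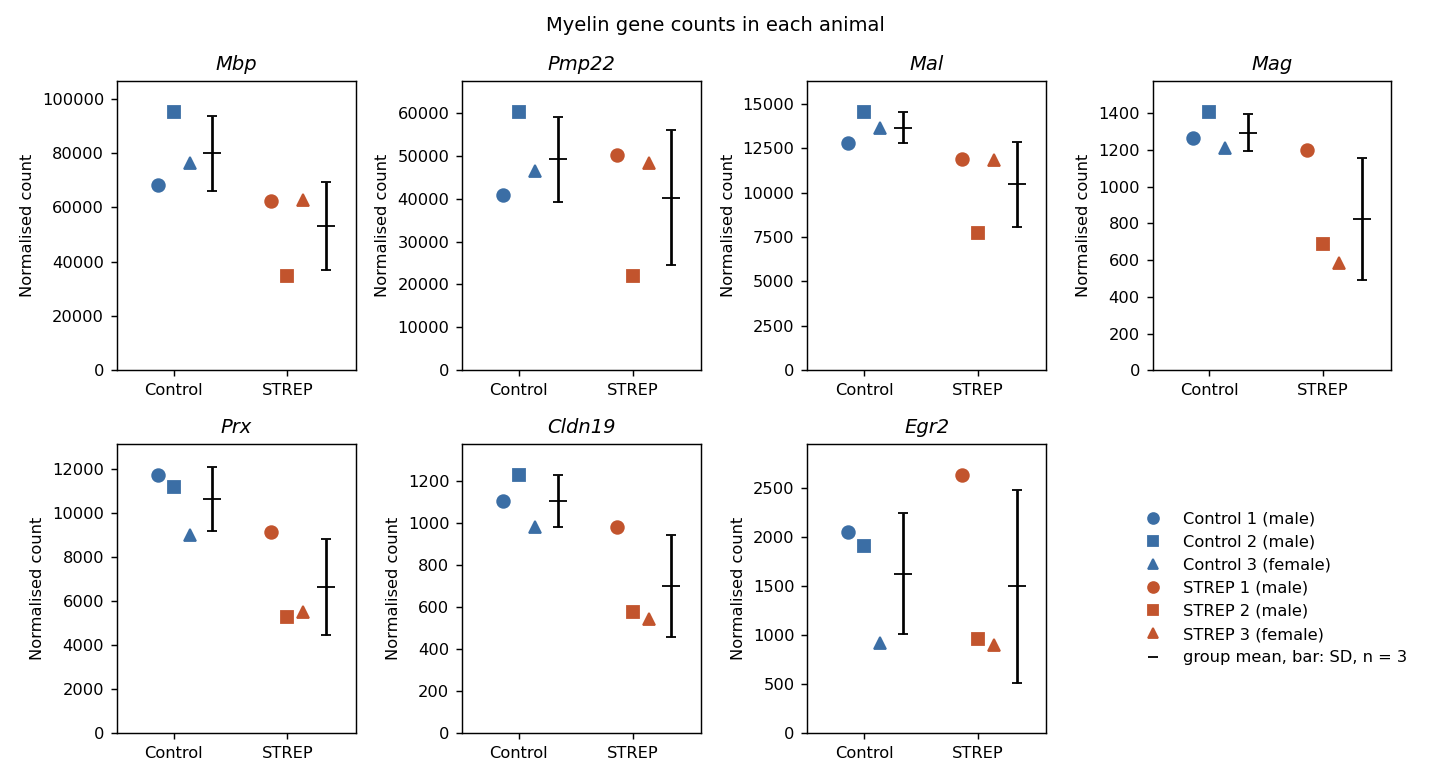
Normalised counts of each of the 7 genes (vertical axes, from 0, linear) in the Control (blue) and STREP (red) animals, with the group mean and SD (n = 3) in black. STREP 2 (square) was low for every gene, STREP 3 (triangle) was low for Mag, Prx, Cldn19 and Egr2, and STREP 1 (circle) was at 78.0% to 162% of the Control mean. The 162% was that of Egr2.

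The SD was larger among STREP than among Control animals for all 7 genes. STREP 1 ranged from 78.0% to 162% of the Control mean over the 7 genes, STREP 2 from 43.2% to 58.8% and STREP 3 from 45.1% to 98.2%. The 162% was that of Egr2, and the next highest gene in STREP 1 was Pmp22 at 102%. STREP 1 was below every Control animal for 3 of the 7 genes. The lowest value of all 6 animals was that of STREP 2 for 4 genes and of STREP 3 for the other 3. STREP 1 was the highest STREP animal for 6 of the 7.

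After the group means were subtracted, the levels on the log2(normalised count + 1) scale fell into 2 sets that varied together across the 6 animals. Pearson r was 0.98 to 1.00 for the 3 pairs among Mbp, Pmp22 and Mal, and 0.85 to 0.98 for the 6 pairs among Mag, Prx, Cldn19 and Egr2. For the 12 pairs between the sets it was 0.33 to 0.51. The sets were drawn from these same values of r. The median r over all 21 pairs was 0.49, and it was 0.93 without STREP 3. The points share libraries and size factors, and the sets also differed in abundance: Mbp, Pmp22 and Mal had mean normalised counts over 10000, and the other 4 genes lay under 10000.

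That split moved with a property of the libraries. For the 100 genes with mean normalised counts of 30000 to 100000, the bin that holds Mbp and Pmp22, the median deviation from the Control mean was -0.31 in STREP 2 and 0.53 in STREP 3 on the log2 scale. It was -0.18 and 0.30 for the 386 genes of 10000 to 30000, where Mal lies. For the 5630 genes of 1000 to 10000, which hold Mag, Prx and Egr2, it was -0.03 and 0.03. In STREP 1 the same 3 medians lay between -0.04 and -0.02. Other myelin genes did not all follow abundance. Ncmap, averaging 528 normalised counts, had r of 0.96 with the mean of Mbp, Pmp22 and Mal. Its r with the mean of Mag, Prx, Cldn19 and Egr2 was 0.51. For Dag1, averaging 15230, the same values were 0.39 and 0.92. For Cnp, averaging 17920, they were 0.97 and 0.57.

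**Figure D2:**
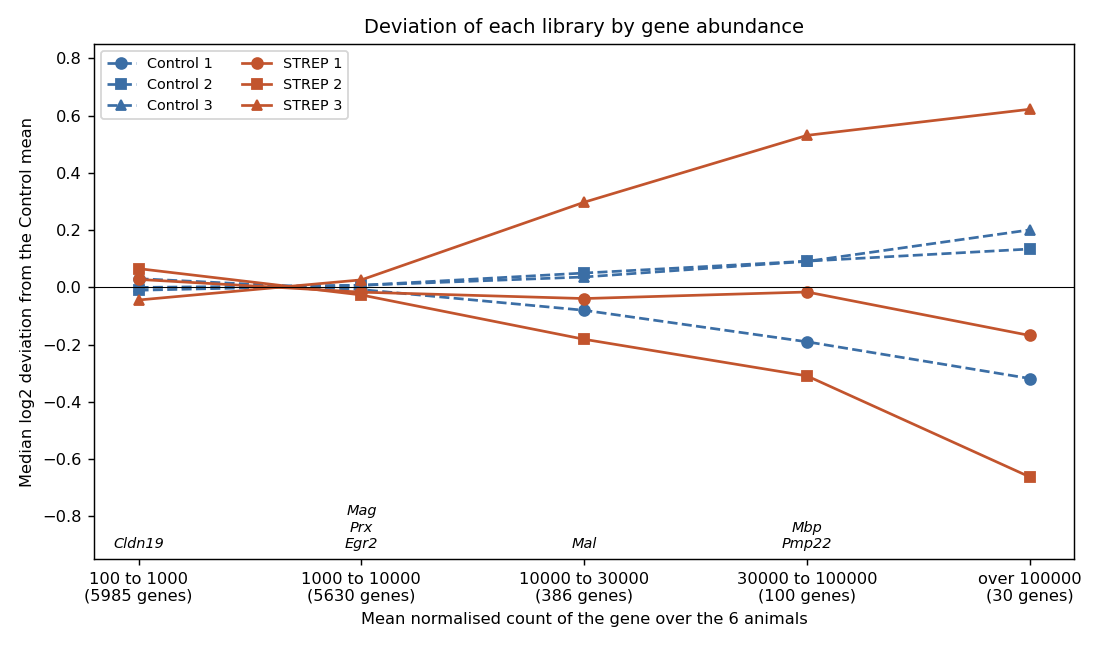
Median over genes of the log2 deviation from the Control mean (vertical axis) in 5 bins of mean normalised count (horizontal axis), for each library, with the genes of the set named above their bins. Libraries meet near 0 below 10000 counts and spread above it, to 0.62 in STREP 3 and -0.66 in STREP 2 for the 30 genes over 100000.

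The levels were therefore also computed with scaling factors that follow abundance within each library, an analysis chosen after seeing the data. Under it, Mbp had 79144, 91302 and 71328 normalised counts in Control 1, 2 and 3 and 65968, 45902 and 44458.5 in STREP 1, 2 and 3. STREP 3 thereby moved down to the level of STREP 2, and Mbp was called at -0.63 ± 0.17 (DESeq2, adjusted p = 0.00655). Prx was called under it as well, at -0.69 ± 0.22 (DESeq2, adjusted p = 0.0357), giving 2 of 7 genes beside 1.49% of all genes tested called lower.

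Pmp22 had 28160.1 and 35157 normalised counts in STREP 2 and 3 under the abundance-dependent scaling, both below the lowest Control animal at 44595, but STREP 1 at 52762 did not. Its log2 fold change of -0.37 ± 0.20 did not pass the test (DESeq2, adjusted p = 0.443), nor did that of Mal at -0.42 ± 0.14 (adjusted p = 0.0604). Pearson r between the 2 sets of genes then ran from 0.68 to 0.98, so the division into sets was largely absent. Mag, Cldn19 and Egr2 stood at -0.65, -0.66 and -0.11 in log2 fold change, close to their values with 1 size factor.

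**Figure D3:**
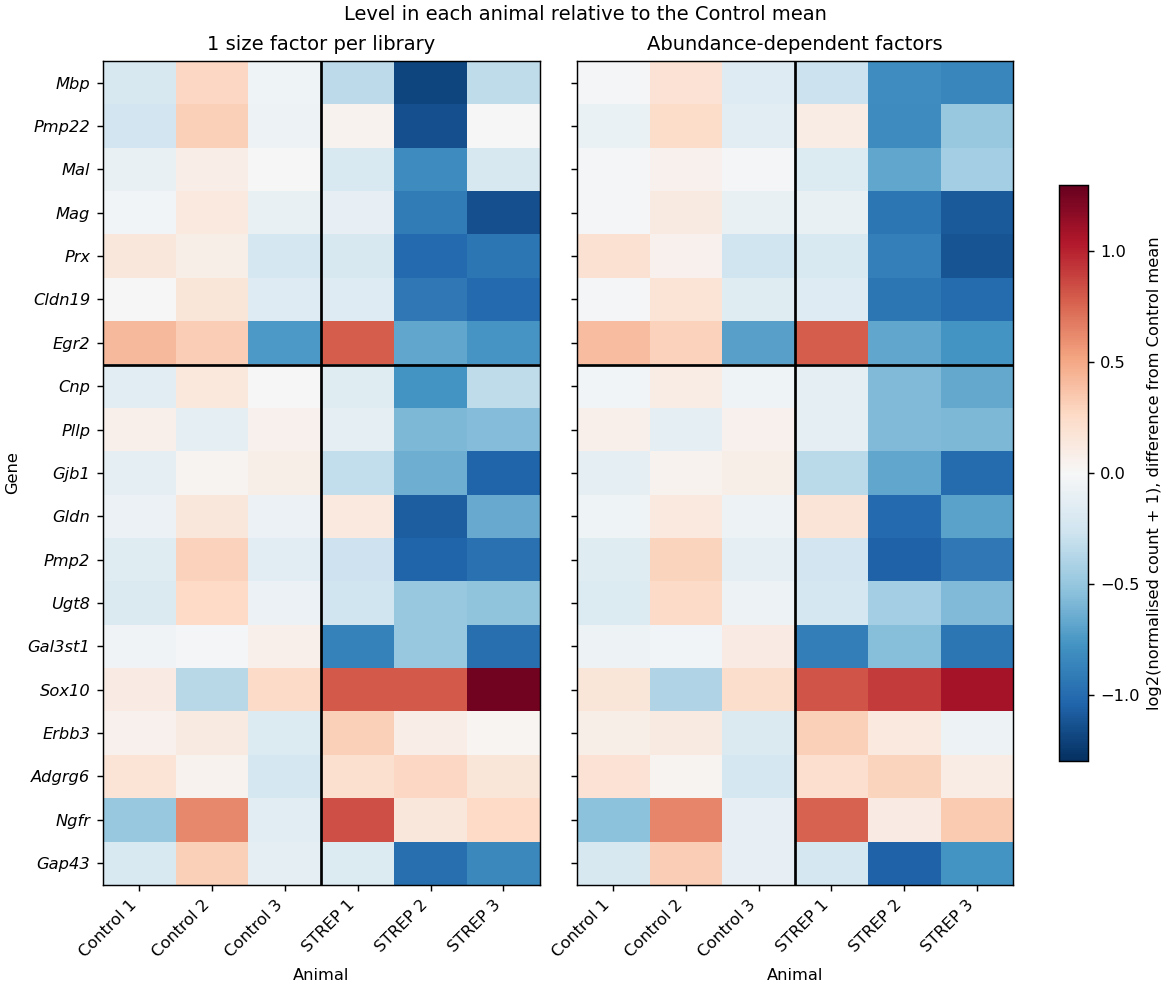
Level of each gene in each animal as the difference of log2(normalised count + 1) from the Control mean (colour), with 1 size factor per library on the left and abundance-dependent factors on the right. The 7 genes are above the horizontal line, and other myelin and Schwann cell genes, chosen for display after their values were seen, are below it. On the right STREP 2 and STREP 3 are alike for Mbp, at 45902 and 44458.5 normalised counts, whereas on the left they differ, at 34541 and 62828.

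The call of Prx depended on which animals and which test were used. It was lost without any one of Control 1, Control 2, Control 3, STREP 2 or STREP 3, where the log2 fold change was between -0.79 and -0.54. Without STREP 1 it was -0.98 ± 0.17, and Mag at -1.02 ± 0.19 and Cldn19 at -0.98 ± 0.20 were called too (DESeq2, adjusted p = 1.74e-06, 2.59e-05 and 0.000195), beside 1.46% of all genes tested called lower. By edgeR (quasi-likelihood, low counts filtered), 0 of the 7 genes were called and 3 had an unadjusted p under 0.05.

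Males and females could be compared only through the 1 female in each group. DESeq2 found 0 of 7 genes with an adjusted p under 0.05 for the sex by group interaction, and 0 with an unadjusted p under 0.05. The lowest unadjusted p was 0.237, and the widest estimate, that of Egr2, was 0.12 ± 1.17 on the log2 scale. Among males alone (2 against 2), the log2 fold changes of Mbp and Prx were -0.76 ± 0.24 and -0.67 ± 0.22 (DESeq2, adjusted p = 0.0543 and 0.0772).

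A wider list of 26 genes of myelin proteins and lipid enzymes put these values in context. Of these, DESeq2 called 1 lower and 0 higher (6 and 0 at an unadjusted p under 0.05), 20 had negative and 6 positive log2 fold changes, and the median was -0.23. DESeq2 called Gal3st1 lower, at -0.77 ± 0.20 on the log2 scale (adjusted p = 0.00432). It encodes the enzyme that makes sulfatide, a sulfated lipid of myelin that also occurs in other cells. Its normalised counts were 882, 893 and 953 in Control 1, 2 and 3 and 493, 643 and 461 in STREP 1, 2 and 3. STREP 1 was low here, in contrast to its place for the 7 genes. The call was kept in 12 of 18 alternatives.

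Several other myelin genes had values in the same direction that did not pass the test, and Cadm4 had one in the other direction. Pmp2, a fatty acid binding protein of myelin, was at -0.73 ± 0.24 on the log2 scale (DESeq2, adjusted p = 0.0589), with 1364, 1868.5 and 1382 normalised counts in Control 1, 2 and 3 and 1265, 738 and 775 in STREP 1, 2 and 3. The groups did not overlap, and under the abundance-dependent scaling Pmp2 was called at -0.72 ± 0.23 (adjusted p = 0.0493). Gjb1, a gap junction protein of Schwann cells, was at -0.64 ± 0.23 (adjusted p = 0.116) without overlap. Gldn, a protein of the nodes, and Ugt8, which makes galactosylceramide, were at -0.45 ± 0.25 and -0.43 ± 0.17 (adjusted p = 0.498 and 0.155). Cadm4, an adhesion molecule that faces the axon, was at 0.49 ± 0.40 (adjusted p = 0.733).

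**Figure D4:**
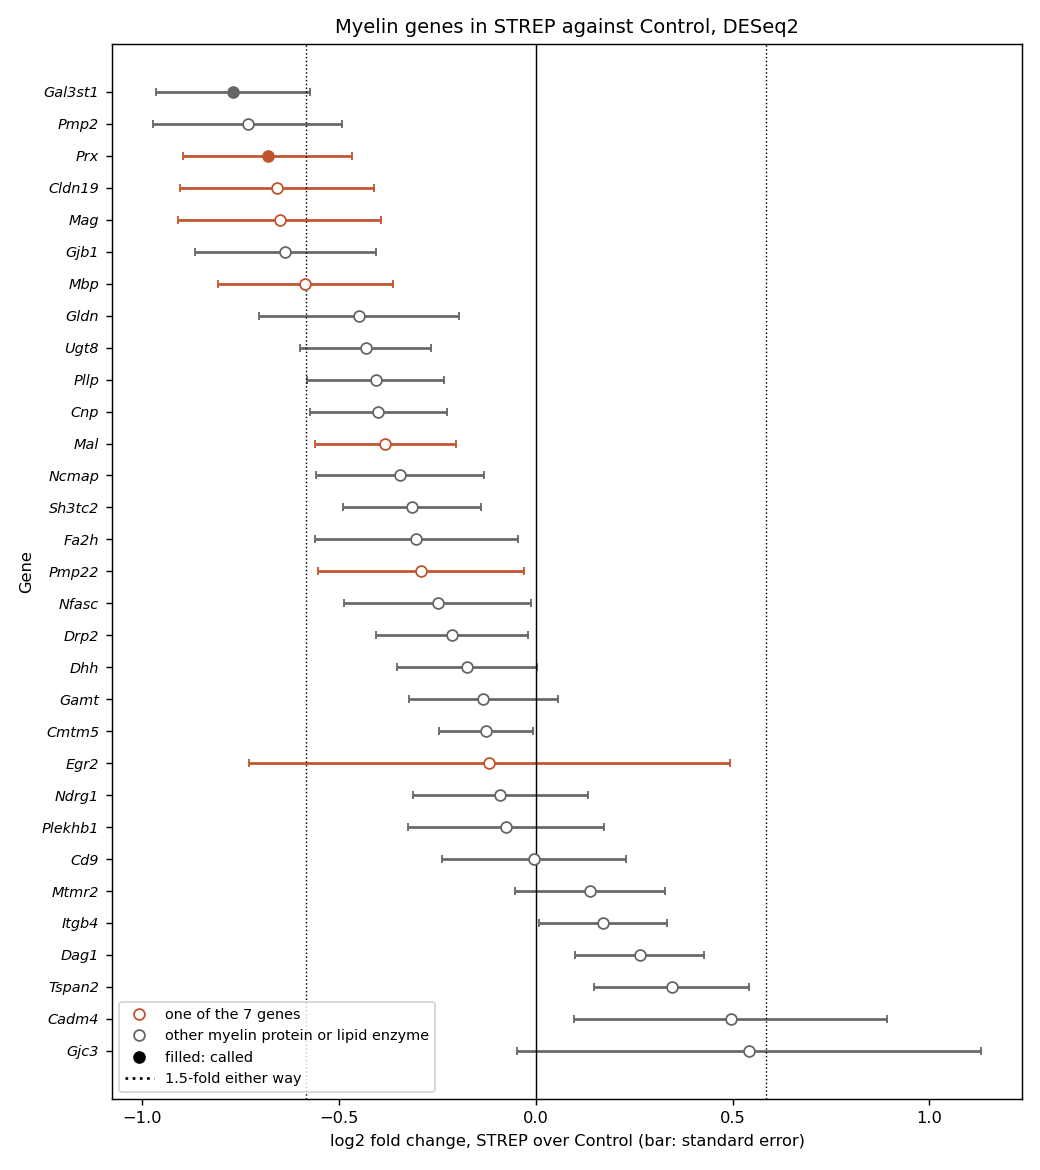
Log2 fold change of STREP over Control with its standard error (horizontal axis) for the 7 genes (red) and other genes of myelin proteins and lipid enzymes (grey), ordered by value. Filled points, Prx and Gal3st1, were called, and the dotted lines mark 1.5-fold either way.

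Genes of the transcription factors, receptors and signals that regulate Schwann cells had mostly positive values. Of the 16 listed, 15 were tested. DESeq2 and edgeR with a count filter each called 0 lower and 1 higher, with 0 and 1 at an unadjusted p under 0.05. By DESeq2, 13 had positive and 2 negative values, and the median log2 fold change was 0.23. The gene called higher was Sox10, a transcription factor of the glial lineage that is also expressed in the epithelium of the inner ear. It had 5428, 3927 and 5981 normalised counts in Control 1, 2 and 3 and 8773, 8770.2 and 11993 in STREP 1, 2 and 3. Every STREP animal was above every Control animal, and the fitted difference was 0.95 ± 0.19 on the log2 scale (DESeq2, adjusted p = 0.000104), and the call was kept in 17 of 18 alternatives.

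Nfatc4, a calcium-regulated transcription factor, and Nrg1, the neuregulin ligand of the ErbB receptors, were at 0.48 ± 0.30 and 0.47 ± 0.30 on the log2 scale (DESeq2, adjusted p = 0.573 and 0.598). Their STREP values were 301, 614 and 356 normalised counts for Nfatc4, where STREP 2 stood alone, and 490.0, 577 and 407 for Nrg1. Neither passed the test.

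In the list of non-myelinating, immature and repair Schwann cells, 17 of 18 genes were in the table, 15 were tested, and the median log2 fold change was 0.07. DESeq2 and edgeR called 0 of them, with 4 and 3 at an unadjusted p under 0.05. Ngfr, the low-affinity neurotrophin receptor of non-myelinating and denervated Schwann cells, had 117, 254 and 150 normalised counts in Control 1, 2 and 3 and 294, 182 and 197 in STREP 1, 2 and 3. The groups overlapped, at 0.37 ± 0.37 on the log2 scale (DESeq2, adjusted p = 0.821). Gap43, a growth-associated protein of axons and of non-myelinating Schwann cells, was at -0.64 ± 0.30 (adjusted p = 0.315), with STREP 2 and STREP 3 below the Control range. Over the 3 wider lists together, 56 genes were tested, 28 had negative values and the median was 0.01, equal to that of all genes tested.

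The label of Schwann cell myelin was checked against the myelin-forming cells of the brain. Of the oligodendrocyte markers, Opalin and Olig2 were at 0 counts in 6 of 6 libraries, and Mog had between 3.40 and 12.0 normalised counts. Other genes of that 10-gene list were detected: Cldn11, a claudin also made by other cells of the inner ear, had 2404 to 4872 normalised counts, Aspa had 897 to 1457 and Myrf had 37.8 to 148. The list stood at 0.21, 0.55 and 0.63 in STREP 1, 2 and 3, as the average log2(normalised count + 1) less its Control mean. That score includes genes near the floor. Mobp was at 0 in every Control animal and at 0, 21.6 and 2.99 normalised counts in STREP 1, 2 and 3. Nkx6-2 was at 0 in every Control animal and at 0, 4.32 and 10.5 in STREP 1, 2 and 3. DESeq2 called 0 genes of the list, with 2 (Mobp and Cldn11, both higher) at an unadjusted p under 0.05. By edgeR 0 were called, with 1 at an unadjusted p under 0.05.

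Marker lists of other cell types also differed between the STREP animals. Scored as the average log2(normalised count + 1) of a list less its Control mean, the 7 genes stood at -0.03, -0.95 and -0.63 in STREP 1, 2 and 3. Egr2, at 0.78 in STREP 1, raised the first of these values. The other genes of the set lay between -0.34 and 0.05 in that animal. Pericyte and smooth muscle markers (6 genes) stood at 0.53, -0.50 and -0.21, endothelial markers (5 genes) at 0.31, -0.15 and -0.16, and fibroblast markers (8 genes) at 0.30, -0.13 and -0.42. In these 4 lists STREP 1 was the highest STREP animal. It was also the highest for perineurium markers (6 genes), at 0.28, -0.23 and 0.15, and in the 3 wider lists. Of these, myelin proteins and lipid enzymes stood at 0.05, -0.43 and -0.23 and Schwann cell regulators at 0.33, 0.30 and 0.13. Genes of non-myelinating, immature and repair Schwann cells stood at 0.02, -0.15 and -0.30. The remaining lists had other orders. Melanocyte markers (5 genes) stood at -0.81, -0.30 and -0.61 and macrophage markers (8 genes) at -0.07, 0.21 and -0.09. Supporting cell markers (10 genes) stood at 0.16, 0.12 and 0.52. All these scores used 1 size factor per library. Under the abundance-dependent scaling, supporting cell markers stood at 0.19, 0.31 and 0.25 and the 7 genes at -0.01, -0.82 and -0.83. Myelin proteins and lipid enzymes then stood at 0.06, -0.35 and -0.35. Pericyte and smooth muscle markers changed little, at 0.54, -0.51 and -0.17. The parts of tissue composition and dissection in the values of the 7 genes were not tested. DESeq2 and edgeR called 0 genes in the melanocyte, macrophage and supporting cell lists. At an unadjusted p under 0.05, DESeq2 had 2 melanocyte markers lower, 1 macrophage marker lower and 2 higher, and 5 supporting cell markers higher. In the pericyte and smooth muscle, endothelial and fibroblast lists both tools also called 0 genes. An unadjusted p under 0.05 was found by DESeq2 for 3 fibroblast markers, and for 0 pericyte and smooth muscle or endothelial markers. The median log2 fold changes of pericyte and smooth muscle, endothelial and fibroblast markers were -0.10, -0.01 and -0.16. Summed normalised counts were 3455 to 4369 in Control and 2836 to 5179 in STREP animals for pericytes and smooth muscle, 7762 to 8452 and 7162 to 10137 for endothelium, and 15869 to 21516 and 15005 to 19886 for fibroblasts.

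Genes of HCs and axons gave other patterns. The average of 9 HC markers stood at -0.53, -0.40 and -0.49 in STREP 1, 2 and 3. DESeq2 called 2 of the 9 lower, beside 1.37% of all genes tested. These were Kcna10 at -1.56 and Loxhd1 at -1.21 on the log2 scale. The markers not called ran from -0.49 for Myo7a to 0.45 for Cdh23. Myo7a had an adjusted p of 0.0162 by DESeq2 and no overlap between groups, but fell short of the 1.5-fold cut. Of the 12 neuron and axon markers, DESeq2 called 0 lower, also at an unadjusted p under 0.05, and 1 higher (Tubb3), which edgeR did not call. The list stood at 0.21, -0.28 and 0.46 in STREP 1, 2 and 3. That score includes genes near the floor, such as Nefh at 30.6, 0 and 71.8 normalised counts and Stmn2 at 0, 0 and 12.0. By DESeq2, 5 of the 12 had negative and 7 positive log2 fold changes. Better detected genes went both ways, with Nefl at -0.29, Sncg at -0.25 and Cntn1 at 0.27.

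**Figure D5:**
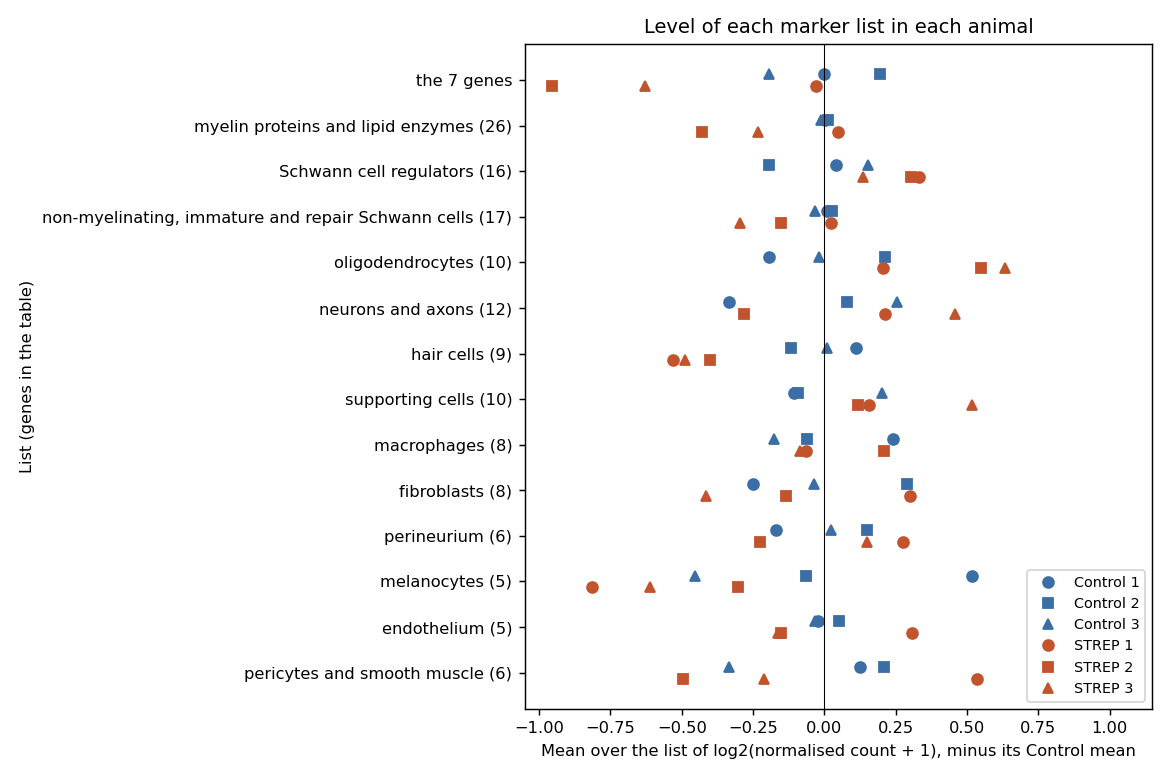
Average log2(normalised count + 1) of each marker list in each animal, less the Control mean of that list (horizontal axis), with Control in blue and STREP in red. Counts were scaled with 1 size factor per library. For the 7 genes STREP 1 lies among the Control animals at -0.03, an average that includes Egr2 at 0.78. The other genes of the set lie between -0.34 and 0.05 in STREP 1. STREP 2 and STREP 3 lie at -0.95 and -0.63 for the 7 genes. The average of the HC markers lies between -0.53 and -0.40 in the STREP animals.

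The genes whose levels varied most like the mean of the 7, after subtraction of group means and over 6 animals, were Dhcr7 (r = 0.999), Dmp1 (0.999), Eng (0.995), Adamtsl5 (0.993) and Adgre5 (0.992). Dhcr7 encodes the enzyme of the last step of cholesterol synthesis and Eng a co-receptor of endothelial cells. None of the 5 passed the test, with DESeq2 adjusted p-values from 0.229 for Eng to 0.982 for Adgre5. Among 12124 genes compared, 233 (1.92%) had r of at least 0.9, and of the list of myelin proteins and lipid enzymes 3 of the 25 compared (12%) did.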

How the data were processed

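The authors made SMARTseq2-type libraries from the vestibular epithelium of 6 rats, aligned reads with STAR 2.5.3a to Rnor6.0, quantified genes with RSEM (1.3.0 in the submitters' processing notes) and deposited expected counts, the estimated reads per gene, without scaling. All deposited values were whole numbers (0 exceptions), so rounding changed nothing. Molecular identifiers were not used, so reads of 1 molecule may be counted repeatedly. Groups came from the labels, and replicate numbers follow accession order and pair no animals. The labels give the same batch for all libraries. Separate animals are the replicates.

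Counts were fitted with DESeq2 1.42.0 in R 4.3.3 (size factors by median of ratios, design of group alone, Wald test, independent filtering at 0.05, Benjamini-Hochberg adjustment over all genes). Genes were called at adjusted p under 0.05 and fold change over 1.5. Scores and correlations used log2(normalised count + 1). Alternatives were edgeR 4.0.16 quasi-likelihood tests and other scalings, filters, thresholds, samples and covariates. Abundance-dependent scaling, a lowess (span 0.02) of each library's log2 deviation on the mean passed to DESeq2 as factors per gene, was added after seeing the data. The fits and correlations were tested on simulated data.

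The 7 genes and all lists were chosen with earlier results of these data known. Named genes were the 7; the called genes of the 3 wider lists and those with the largest fold changes among genes averaging at least 100 normalised counts, up to 10 in all; the defining genes Sox10, Ngfr and Mog; and the 5 genes most correlated with the mean of the 7. Genes named beyond that rule, such as Opalin, Olig2, Kcna10, Loxhd1 and Tubb3, were chosen after their values were seen. Some genes that the rule covers are not reported here. Promoter sequences are from RefSeq (GRCr8). Coordinates in Rnor6.0, transcript lengths and protein sequences were not analysed here.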

Additional observations from a re-analysis of the deposited data

How the results depend on the processing

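The negative direction of Mbp, Pmp22, Mag, Prx, Mal and Cldn19 was kept in all 18 alternatives (12 of method, 6 leaving out an animal each). Direction could not change with no independent filtering, no fold threshold or the fold threshold inside the Wald test, which keep the fold changes of the main fit. Dropping the fold threshold could not lose a call either, and the counts of calls over 18 alternatives include it. Egr2 was positive without Control 1 (0.08), Control 2 (0.01), STREP 2 (0.12) or STREP 3 (0.14), and ranged from -0.81 to 0.14 over the omissions. The count of genes called among the 7 was 1, and 0 with edgeR with or without a count filter, with library totals as size factors, with males alone, and with the fold threshold inside the Wald test, where Prx had log2 fold changes of -0.68, -0.69, -0.70, -0.67 and -0.68. It was 2 with abundance-dependent scaling, where Mbp was at -0.63. Over the omissions it ranged from 0 to 3, and Prx ranged from -0.98 to -0.54, Mag from -1.02 to -0.46, Cldn19 from -0.98 to -0.51, Mbp from -0.72 to -0.35, Mal from -0.48 to -0.21 and Pmp22 from -0.48 to -0.00022. The values nearest 0 for Mbp, Mal and Pmp22 were those without STREP 2, where no difference in Pmp22 remained. With an unadjusted p under 0.05 there were 3 and 5 of the 7 genes in the edgeR tests with and without the filter, 5 with library totals, 4 with males alone and 0 with the threshold inside the test. The cause was not tested.

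The count over all genes, 527 by DESeq2, was 264 and 295 in the edgeR tests with and without a count filter, 309 with library totals and 82 with the threshold inside the test. The 2 calls in the wider lists became 1 with edgeR with a filter, library totals and males alone, 0 with the threshold inside the test, and 1 to 4 over the omissions. The median r between the 7 genes, 0.49, was 0.72 without subtraction of group means, 0.91 with abundance-dependent scaling and 0.16 to 0.93 over the omissions. The 0.16 was without STREP 1 and the 0.93 without STREP 3. No paired analysis was run, because the Control and STREP rats were separate animals and the labels give no pairing. Thinning every library to the smallest total, which removed counts mostly from Control libraries, left Prx at -0.68 with 494 genes called. The depth of the STREP libraries was not tested.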
